A study of Mus musculus with 13 samples.

Results

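The ADAMTS proteases are secreted zinc metalloproteases of the extracellular matrix, and 8 of their genes (Adamts1, Adamts2, Adamts4, Adamts5, Adamts9, Adamts10, Adamts12 and Adamts15) were followed across mouse aortas from a 4-arm drug study. The members were taken by gene symbol as a set of proteases of versican, aggrecan and procollagen, and they make up 8 of the 36082 gene rows in the expression table, of which 28510 carried values. The aortas came from mice given BAPN together with fasudil (3 libraries), BAPN alone (2 libraries analysed of 3 listed), fasudil alone (3 libraries) or water as vehicle (4 libraries). BAPN (β-aminopropionitrile), which blocks the lysyl oxidases that cross-link collagen and elastin, was given at 0.25% in drinking water. Fasudil, a vasodilator drug that relaxes smooth muscle, was dissolved in the water to reach 150 mg/kg/day. In the combined arm BAPN was given alone for 1 week before both drugs were given together, and all mice were kept for 1 week of acclimatisation and 4 weeks of experiment. Strain, sex and age are not given in the sources used here. The labels name arms of 10 to 12 mice for 3 of the groups, but they do not say whether a library is 1 mouse or a pool, so p-values measure only the spread between these samples.

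ADAMTS enzymes share a metalloprotease domain followed by thrombospondin repeats, and they differ in substrate. ADAMTS2 removes the amino-terminal propeptide of fibrillar procollagens, ADAMTS1, ADAMTS4, ADAMTS5, ADAMTS9 and ADAMTS15 cut the large hyaluronan-binding proteoglycans versican and aggrecan, ADAMTS10 binds fibrillin microfibrils, and ADAMTS12 cuts cartilage oligomeric matrix protein. In the aortic wall, versican turnover by this family is known to shape the provisional matrix between smooth muscle layers, and mice with reduced Adamts1 are known to develop thoracic aortic disease.

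The deposited values were FPKM, fragment counts divided by transcript length and library size, which were scaled between libraries before any comparison and are called scaled FPKM here. The depth recovered from the steps between low values was 20.44 to 21.02 M reads per library, and 11127 to 13601 genes reached 1 FPKM. At that depth Adamts10 rested on about 1040 to 6170 reads per library, Adamts12 on about 103 to 430 and Adamts4 on about 5.49 to 136. All 7 smooth muscle markers were present, which does not by itself identify the tissue. Their summed level ranged widely, from 1430 to 8930 scaled FPKM with BAPN and fasudil and 1950 to 4500 with BAPN alone. It was 435 to 4310 with fasudil alone and 1500 to 4660 with vehicle. The 6 brown adipocyte markers, all detected, summed to 1880 to 2470 with both drugs, 622 to 3320 with BAPN alone, 4030 to 8030 with fasudil alone and 6630 to 11300 with vehicle. The 7 adventitial fibroblast markers summed to 1280 to 1540 with both drugs, 1090 to 1290 with BAPN alone, 811 to 1310 with fasudil alone and 647 to 1080 with vehicle. Single libraries stood apart in other marker lists. Airway markers summed to 13600 in vehicle replicate 3, B and plasma cell markers to 391 in BAPN replicate 1, and neutrophil markers to 73.7 in combined replicate 1, the highest values of these lists. Because whole aortas were measured, fewer cells of a type and less RNA per cell cannot be told apart, and this holds for every result that follows.

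Of the 8 members, 4 had an entry in the RefSeq promoter table (Adamts1, Adamts2, Adamts9 and Adamts12; build GRCm38.p6). The 250 bases upstream of the start are printed for Adamts1, Adamts2 and Adamts12, since the results turn on these genes most. Each is given 5′ to 3′ on the gene's own strand, and capitals mark matches, on either strand, to the GC box (GGGCGG), the TATA box (TATAAA) and the CRE half-site (TGACG).
Adamts1: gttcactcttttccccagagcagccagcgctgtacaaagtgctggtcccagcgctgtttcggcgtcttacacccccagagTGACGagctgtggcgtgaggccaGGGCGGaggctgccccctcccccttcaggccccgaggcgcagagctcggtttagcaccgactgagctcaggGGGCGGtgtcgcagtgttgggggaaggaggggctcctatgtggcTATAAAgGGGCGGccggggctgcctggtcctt
Adamts2: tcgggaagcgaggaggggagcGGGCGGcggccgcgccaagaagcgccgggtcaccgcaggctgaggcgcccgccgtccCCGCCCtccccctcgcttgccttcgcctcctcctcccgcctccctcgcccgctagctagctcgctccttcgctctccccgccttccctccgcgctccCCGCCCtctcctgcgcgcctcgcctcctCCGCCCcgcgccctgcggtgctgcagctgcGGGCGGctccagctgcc
Adamts12: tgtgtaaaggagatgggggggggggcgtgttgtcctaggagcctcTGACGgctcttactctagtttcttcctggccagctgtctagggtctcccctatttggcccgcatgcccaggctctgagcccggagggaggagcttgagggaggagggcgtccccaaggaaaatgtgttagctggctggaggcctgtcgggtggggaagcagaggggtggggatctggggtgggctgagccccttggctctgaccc
They lie at chr16:85803114-85803363 (minus strand), chr11:50601835-50602084 (plus strand) and chr15:11064523-11064772 (plus strand). The Adamts2 stretch was 78.0% G or C with 5 GC boxes, the Adamts1 stretch 65.6% with 3 GC boxes, 1 TATA box and 1 CRE half-site, and the Adamts12 stretch 63.2% with 1 CRE half-site and no GC box. No match overlapped another. Among 32851 RefSeq promoters of the same length, with a median of 52.4% G or C, 32.7% held a GC box, 12.4% a TATA box and 17.8% a CRE half-site. The CCAAT box (CCAAT, in 33.8% of promoters) and the AP-1 site (TGANTCA, in 6.75%) were searched too and had no match in these windows.

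Adamts10 was the most abundant member per transcript length in the vehicle aorta and Adamts4 the least. In vehicle aortas Adamts10 averaged 27.3 ± 10.7 scaled FPKM, Adamts1 10.5 ± 3.84, Adamts2 8.51 ± 3.98 and Adamts9 3.54 ± 0.334 (SD, n = 4). Adamts15 averaged 2.22 ± 0.728 scaled FPKM there, Adamts5 1.74 ± 0.440, Adamts12 0.785 ± 0.0930 and Adamts4 0.140 ± 0.0608 (SD, n = 4). Over the vehicle libraries the ranges of Adamts1 and Adamts2 overlapped, and so did those of Adamts15 and Adamts5, while the other neighbours in this order did not overlap. The summed level of the 8 members was 97.9 ± 12.1 scaled FPKM with both drugs (n = 3), 85.8 ± 17.7 with BAPN alone (n = 2), 53.2 ± 20.0 with fasudil alone (n = 3) and 54.7 ± 19.4 with vehicle (n = 4). The lowest combined library, replicate 1 at 88.8, was above the highest vehicle library, at 80.6. Its Adamts1 value was 36.2, against 15.1 or less in vehicle libraries, and the separation of the sums depends on this 1 value. The sum was not tested. Adamts10 made up 46.6% to 54.9% of the sum in every library except combined replicate 1, where it was 29.9% and Adamts1 was 40.8%.

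**Figure D1:**
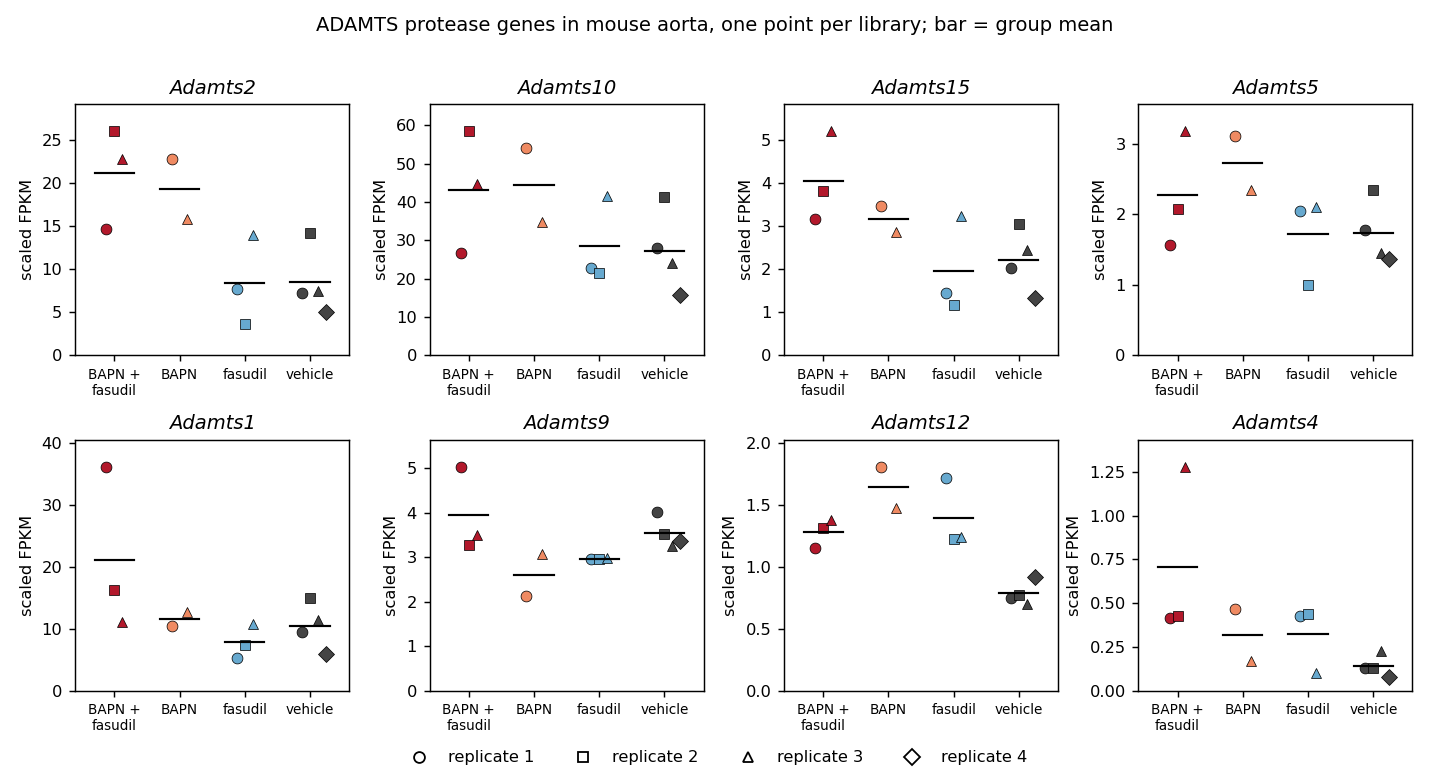
Scaled FPKM (y axes, each from 0) of the 8 ADAMTS genes in each library, with groups on the x axis, symbols for replicate numbers and a bar at each group mean. All BAPN-treated libraries lie above all others for Adamts2 (14.7 and more, against 14.3 and less), and all drug-treated libraries lie above vehicle for Adamts12 (1.15 and more, against 0.918 and less).

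The procollagen N-proteinase gene Adamts2 (ENSMUSG00000036545, chr11:50492911-50698400, plus strand, GRCm39 as in the deposited table) was the member that separated aortas by BAPN. It was at 14.7, 26.1 and 22.9 scaled FPKM with BAPN and fasudil and at 22.9 and 15.8 with BAPN alone. With fasudil alone it was at 7.68, 3.59 and 14.03, and in vehicle aortas at 7.28, 14.3, 7.45 and 5.05. All 5 libraries with BAPN were above all 7 without it, though the gap between 14.7 and 14.3 was small; 2.17% of the 13748 tested genes showed the same separation, which was noticed after the values were seen. It did not hold on FPKM without scaling, where the lowest library with BAPN had 15.3 and the highest without it 15.4, nor after rescaling without mitochondrial-chromosome genes, where these values were 31 and 33.3. The log2 fold change was 1.27 ± 0.41 (SE) for BAPN with fasudil against vehicle, 1.16 ± 0.47 for BAPN alone against vehicle and -0.09 ± 0.41 for fasudil alone against vehicle. None of these passed (limma, Benjamini-Hochberg adjusted p = 0.091, 0.198 and 0.974).

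The ratio of Adamts2 to Adamts10 within a library, which no scaling between libraries can move, was 0.551, 0.446 and 0.511 with both drugs and 0.423 and 0.454 with BAPN alone. It was 0.336, 0.168 and 0.338 with fasudil alone and 0.261, 0.344, 0.308 and 0.323 with vehicle. Every ratio in BAPN-treated aortas was thus above every ratio in the others. With Adamts15 as the partner gene this did not hold. Adamts2 per Adamts15 was 4.38 to 6.83 with both drugs and 5.53 to 6.59 with BAPN alone. The range with both drugs overlapped with 3.1 to 5.28 with fasudil alone and with 3.03 to 4.66 with vehicle. Relative to Col1a1, which encodes the α1 chain of type I procollagen, a substrate of ADAMTS2, the order turned round. Adamts2 per Col1a1 was 0.0562 ± 0.0129 with both drugs (SD, n = 3) and 0.0610 ± 0.0162 with BAPN alone (n = 2), against 0.12 ± 0.0509 with fasudil alone (n = 3) and 0.0980 ± 0.00567 with vehicle (n = 4). The 5 BAPN-treated libraries were all below the 4 vehicle libraries on this ratio, and they overlapped with the fasudil group through fasudil replicate 3, at 0.0633. These ratios were chosen after the values were seen and have no test. Per 1000 scaled FPKM of summed adventitial fibroblast markers, Adamts2 was 10.4 to 20.3 with both drugs and 12.3 to 21 with BAPN alone, overlapping with 4.43 to 14.5 with fasudil alone and 7.36 to 13.2 with vehicle; the part of these markers in the level of Adamts2 was not tested.

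**Figure D2:**
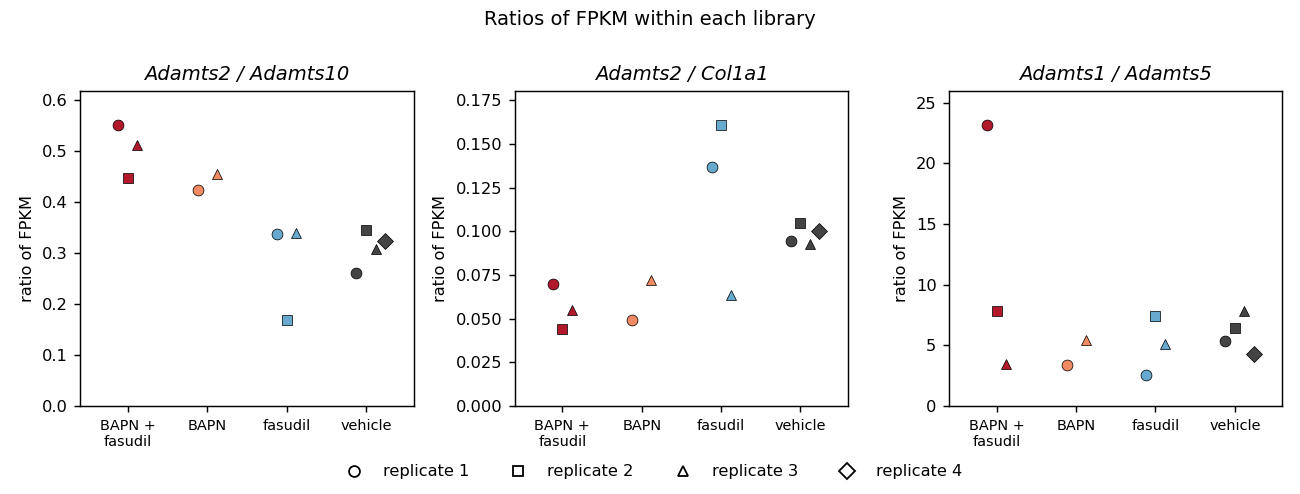
Ratios of FPKM between 2 genes of the same library (y axes, from 0) by group, 1 point per library. Adamts2 per Adamts10 is 0.423 or more in all BAPN-treated libraries and 0.344 or less in the others, Adamts2 per Col1a1 is lower in BAPN-treated than in vehicle libraries, and Adamts1 per Adamts5 is 23.2 in combined replicate 1 and 7.86 or less in vehicle libraries.

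The microfibril-associated member Adamts10 (ENSMUSG00000024299, chr17:33743178-33772756, plus strand), mutated in people with Weill-Marchesani syndrome, varied as much within groups as between them. It was at 26.6, 58.5 and 44.7 scaled FPKM with both drugs, at 54.0 and 34.9 with BAPN alone, at 22.9, 21.4 and 41.6 with fasudil alone and at 27.9, 41.4, 24.2 and 15.7 with vehicle. The combined and vehicle groups overlapped, and the log2 fold change of 0.66 ± 0.37 (SE) did not pass (limma, adjusted p = 0.284). In combined replicate 1, the library with the lowest smooth muscle marker sum of its group at 1430 scaled FPKM, Adamts10 was also the lowest of its group.

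Among the proteoglycan-cutting members, Adamts15 (ENSMUSG00000033453, chr9:30810451-30833748, minus strand) had the lowest adjusted p for both drugs against vehicle. Its levels were 3.18, 3.81 and 5.21 scaled FPKM with both drugs and 3.47 and 2.86 with BAPN alone, against 1.46, 1.16 and 3.25 with fasudil alone and 2.02, 3.06, 2.46 and 1.33 with vehicle. The 3 combined libraries were all above the 4 vehicle libraries, with 3.18 against 3.06 at the edge. The log2 fold change was 0.66 ± 0.26 (SE) against vehicle and 0.82 ± 0.28 against fasudil alone, and neither passed (limma, adjusted p = 0.141 and 0.191).

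Adamts5 (ENSMUSG00000022894, chr16:85653061-85698716, minus strand), the main aggrecanase of mouse cartilage, was at 1.56, 2.07 and 3.18 scaled FPKM with both drugs and at 3.11 and 2.35 with BAPN alone. It was at 2.05, 0.998 and 2.10 with fasudil alone and at 1.77, 2.34, 1.46 and 1.37 with vehicle. Both libraries with BAPN alone were above all fasudil libraries and, by 2.35 against 2.34, above all vehicle libraries, and the other pairs of groups overlapped. Its log2 fold change was 0.45 ± 0.25 (SE) for BAPN alone against vehicle and 0.24 ± 0.22 for both drugs against vehicle, and neither passed (limma, adjusted p = 0.342 and 0.511).

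The other aggrecanase gene, Adamts4 (ENSMUSG00000006403, chr1:171077990-171088206, plus strand), was close to the floor of the measurement. It was at 0.412, 0.424 and 1.28 scaled FPKM with both drugs, at 0.465 and 0.167 with BAPN alone, at 0.428, 0.439 and 0.1001 with fasudil alone and at 0.132, 0.128, 0.224 and 0.0776 with vehicle. Only combined replicate 3 exceeded 1 scaled FPKM, so the gene did not reach the filter of 1 FPKM in at least 2 libraries and was not tested in the fit. The 3 combined libraries lay above the 4 vehicle libraries by value.

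Adamts1 (ENSMUSG00000022893, chr16:85590715-85600001, minus strand) had 1 library far above the rest. It was at 36.2, 16.2 and 11.2 scaled FPKM with both drugs and at 10.5 and 12.7 with BAPN alone. With fasudil alone it was at 5.21, 7.43 and 10.9, and with vehicle at 9.53, 15.1, 11.5 and 5.86. Combined replicate 1 was that library, and the other combined libraries lay within or just above the vehicle range. Its log2 fold change was 0.85 ± 0.39 (SE) for both drugs against vehicle and 1.22 ± 0.42 for both drugs against fasudil alone, and neither passed (limma, adjusted p = 0.199 and 0.194). Against vehicle, the log2 fold change over the fits that each left out 1 library ranged between 0.40 and 1.21. Adamts1 and Adamts5 are neighbours on chromosome 16, 53059 bases apart, yet the ratio of Adamts1 to Adamts5 was 23.2, 7.82 and 3.51 with both drugs and 3.38 and 5.42 with BAPN alone, against 2.54, 7.44 and 5.16 with fasudil alone and 5.37, 6.43, 7.86 and 4.27 with vehicle.

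Adamts9 (ENSMUSG00000030022, chr6:92749680-92920473, minus strand), a versican-cutting member, had levels between 2.12 and 5.04 scaled FPKM over the 12 libraries. It was at 5.04, 3.28 and 3.51 scaled FPKM with both drugs, at 2.12 and 3.07 with BAPN alone, at 2.96, 2.96 and 2.99 with fasudil alone and at 4.01, 3.53, 3.25 and 3.37 with vehicle. Both single-drug groups lay below vehicle on scaled FPKM, and the combined group overlapped with vehicle. On FPKM without scaling both single-drug groups overlapped with vehicle (2.61 to 3.3). They were at 2.87 and 3.31 with BAPN alone and at 2.62 to 3.28 with fasudil alone. The share of all genes with such a separation is not given here. A value recovered for BAPN replicate 2 from the deposited group mean was 3.81, inside the vehicle range. The log2 fold change against vehicle was 0.11 ± 0.15 (SE) with both drugs, -0.35 ± 0.16 with BAPN alone and -0.19 ± 0.15 with fasudil alone, and none passed (limma, adjusted p = 0.662, 0.266 and 0.751). For both drugs against BAPN alone it was 0.46 ± 0.17, with an unadjusted p of 0.0248 and an adjusted p of 1 (limma). That value was 0.26 without BAPN replicate 1, 0.30 without combined replicate 1 and 0.30 with BAPN replicate 2 recovered, and with the recovered replicate no member had an unadjusted p under 0.05 in this comparison.

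Adamts12 (ENSMUSG00000047497, chr15:11064876-11349317, plus strand) was higher by value in every drug-treated aorta than in every vehicle aorta. It was at 1.15, 1.32 and 1.37 scaled FPKM with both drugs, at 1.81 and 1.47 with BAPN alone and at 1.71, 1.23 and 1.24 with fasudil alone, against 0.749, 0.770, 0.702 and 0.918 with vehicle. The 8 treated libraries did not overlap with the 4 vehicle libraries, a separation seen in 1.45% of tested genes and noticed after the values were seen. It also held on FPKM without scaling (1.2 and more in treated libraries, 0.720 and less in vehicle) and with the other 2 scalings tried. Since no vehicle library reached 1 FPKM, Adamts12 entered the test only through treated libraries, so it had to be higher in some of them. Its log2 fold change against vehicle, on the log2(scaled FPKM + 1) scale, which understates changes of low genes, was 0.35 ± 0.13 (SE) with both drugs, 0.56 ± 0.14 with BAPN alone and 0.42 ± 0.13 with fasudil alone. None passed (limma, adjusted p = 0.117, 0.0955 and 0.528). For BAPN alone against vehicle the log2 fold change ranged between 0.466 and 0.653 over the fits that each left out 1 library. Without BAPN replicate 1 or replicate 3 a lone BAPN library is assumed to vary like the other groups, so only this size is given. The adjusted p was 0.0265 (limma) when the value of BAPN replicate 2 was recovered from the deposited group mean, a setting in which 7.85% of tested genes were called. Per 1000 scaled FPKM of summed adventitial fibroblast markers, Adamts12 overlapped between treated and vehicle libraries, with 0.816 to 1.66 in treated libraries and 0.714 to 1.34 in vehicle; the part of these markers was not tested.

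**Figure D3:**
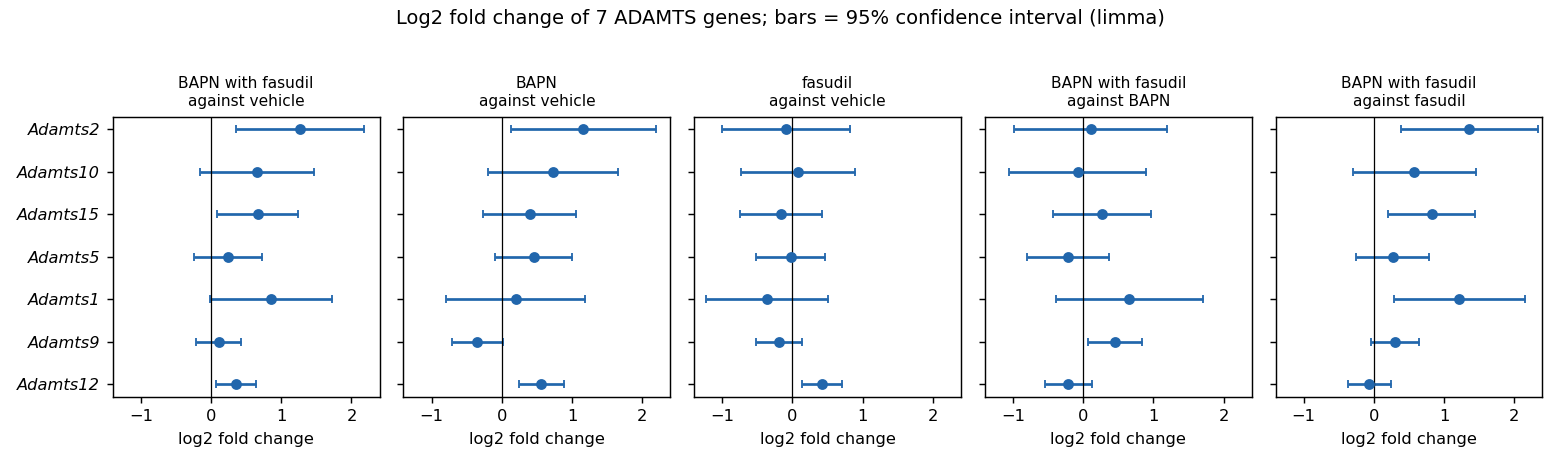
Log2 fold change (x axes) of the 7 tested ADAMTS genes (y axis) in 5 comparisons, with bars for the 95% confidence interval from limma. For both drugs against vehicle all 7 points lie above 0, with Adamts2 at 1.27, and in no panel did a gene pass after adjustment.

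Across the family, BAPN with fasudil against vehicle is described first, a comparison in which both drugs differ. All 7 tested members had a positive log2 fold change, with a median of 0.66 against 0.06 over all 13748 genes, of which 56.1% were above 0. No member passed at an adjusted p under 0.05 (limma), where 1.68% of all genes were called in either direction and 0.662% of all genes were called higher. Adamts2, Adamts12 and Adamts15 had an unadjusted p under 0.05, 3 of 7 members, against 12.1% of all genes in that direction. Their combined and vehicle libraries did not overlap, against 13.2% of all genes. Both counts include Adamts12, which entered the test only through treated libraries, so they give no support for a shift of the family. On FPKM without scaling Adamts2 and Adamts12 passed (adjusted p = 0.0493 and 0.0454), in a setting that called 12.2% of all genes. With only the 2 groups in the fit Adamts2 was the 1 member that passed (limma, adjusted p = 0.0465), and 12.8% of all genes did. With library quality weights 5 members passed, and 37.8% of all genes did. Without the filter on low values all 8 members were tested and none passed, where 0.0801% of all genes were called. In that setting 4 members had an unadjusted p under 0.05, and the share of all genes at that threshold was not computed. Of the marker lists, 5 also separated these groups. The brown adipocyte sum was 1880 to 2470 scaled FPKM with both drugs and 6630 to 11300 with vehicle, and the general adipocyte sum was 3950 to 6740 with both drugs and 8290 to 12800 with vehicle. The adventitial fibroblast sum was 1280 to 1540 with both drugs and 647 to 1080 with vehicle, and the endothelium sum was 259 to 340 with both drugs and 166 to 242 with vehicle. The red cell sum was 10800 to 22200 with both drugs and 3010 to 6760 with vehicle. The macrophage sum overlapped, at 404 to 1030 with both drugs and 171 to 639 with vehicle, yet 4 of its 8 markers were called higher (limma). The other calls among markers were 2 brown adipocyte genes lower, 1 general adipocyte gene higher and 1 red cell gene higher (limma). The part of these marker lists in the values of the members was not tested.

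BAPN alone against vehicle called no gene of the 13748 (0%, limma), and no member. Of the 7 tested members, 6 were above 0, against 51.7% of all genes, with a median log2 fold change of 0.45 against 0.02 over all genes. Adamts2 and Adamts12 had an unadjusted p under 0.05, 2 of 7 members, against 7.14% of all genes in that direction, with the limit on Adamts12 given above. The BAPN and vehicle libraries did not overlap for Adamts2, Adamts5 and Adamts12, 3 of 7 members higher, against 13.2% of all genes. Adamts9 was the member below 0.

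Fasudil alone against vehicle also called 0% of genes and no member (limma). Here 2 of 7 members were above 0, against 46.3% of all genes, with a median log2 fold change of -0.09 against -0.02 over all genes, and Adamts12, with the same limit, was the 1 member with an unadjusted p under 0.05, against 4.18% of all genes in that direction. The comparisons with vehicle share the same 4 vehicle libraries, so their values are not independent of each other.

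Adding fasudil to BAPN left no member called (limma), as for nearly all genes (0.00727% called). Of the members 4 were above 0 and 3 below, against 56.9% of all genes above 0, with a median log2 fold change of 0.11 against 0.04 over all genes, and the 1 member with an unadjusted p under 0.05 was Adamts9, against 2.54% of all genes in that direction. For Adamts2 the 95% confidence interval of this log2 difference, -0.98 to 1.197, leaves room for a change in either direction. Adding BAPN to fasudil called 0.0218% of genes and no member (limma). Adamts1, Adamts2 and Adamts15 had an unadjusted p under 0.05, 3 of 7 members, against 10.6% of all genes in that direction, and the median of the members was 0.57 against 0.03 over all genes. With library quality weights 4 members passed in this comparison (Adamts2, Adamts5, Adamts10 and Adamts15), as did 31.9% of all genes.

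The effect of fasudil in BAPN-treated aortas minus its effect without BAPN, the interaction term, called 0.00727% of genes and no member (limma). Adamts12 and Adamts9, 2 of 7 members, had an unadjusted p under 0.05 in opposite directions, against 5.27% of all genes in either direction. Adamts12 entered the test only through treated libraries and vehicle is part of this term, so the count gives no support for the family. For Adamts12 the interaction was -0.63 ± 0.20 (SE) on the log2 scale and for Adamts9 it was 0.65 ± 0.23 (limma, adjusted p = 0.837 for both).

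The other genes of the pathway were taken from lists chosen with earlier results of these data known. Among the other 11 ADAMTS protease genes, 4 passed the filter and 0 were called for both drugs against vehicle (limma; 2 had an unadjusted p under 0.05), with a median log2 fold change of 0.49. The most abundant of them were Adamts8, which lies 20109 bases from Adamts15 on chromosome 9, at 0.12 ± 0.54 (SE), and Adamts6 at 0.33 ± 0.24. Of the 7 ADAMTS-like genes, which lack a protease domain, 6 were tested and 0 were called (limma; 0 at an unadjusted p under 0.05), with Adamtsl5 at 0.29 ± 0.49 and Thsd4 at 0.87 ± 0.70.

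Among substrate genes no call was made either. In the hyaluronan aggregate list, 0 of 6 tested genes were called for both drugs against vehicle (limma; 2 at an unadjusted p under 0.05; median 0.64). Vcan, which encodes versican, was at 7.53, 18.9 and 11.7 scaled FPKM with both drugs and at 4.73, 8.92, 8.59 and 2.43 with vehicle, and its log2 fold change of 0.97 ± 0.59 (SE) did not pass (limma, adjusted p = 0.326). Acan, which encodes aggrecan, was at 0.134, 17.1 and 15.2 scaled FPKM with both drugs and between 0.394 and 1.67 with vehicle, so combined replicate 1 was below every vehicle library while the other combined libraries were far above them. Of the fibrillar procollagens and their C-proteinases, 0 of 11 tested genes were called (limma; 5 at an unadjusted p under 0.05; median 0.94). Col1a1 was at 210, 593 and 416 scaled FPKM with both drugs and at 77.3, 135, 80.5 and 50.4 with vehicle. These groups did not overlap, and the log2 fold change was 2.19 ± 0.69 for Col1a1 and 1.60 ± 0.79 for Col3a1, which encodes type III procollagen (limma, adjusted p = 0.0846 and 0.226). Among microfibril genes 0 of 12 tested were called (limma; 4 at an unadjusted p under 0.05; median 1.04), with Mfap4 at 1.13 ± 0.89 and Ltbp4 at 0.42 ± 0.45.

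Calls in the lists were made in 2 genes. Among inhibitors, activators and clearance genes, 1 of 12 tested was called for both drugs against vehicle (median 0.44), and this was Timp1, which encodes a tissue inhibitor of metalloproteinases. Timp1 was at 35.8, 55.1 and 176 scaled FPKM with both drugs and at 5.09, 9.82, 7.11 and 4.71 with vehicle. It rose by 3.27 ± 0.66 on the log2 scale (limma, adjusted p = 0.0439), with all combined libraries above all vehicle libraries. Among cytokine and growth factor genes listed as inducers of the family, 1 of 8 tested was called (median 0.62), and this was Tgfb1, which encodes transforming growth factor β1. Tgfb1 was at 27.5, 44.0 and 35.4 scaled FPKM with both drugs and at 16.5, 19.6, 16.1 and 13.97 with vehicle, a rise of 1.05 ± 0.21 on the log2 scale (limma, adjusted p = 0.0434). Each of these calls was lost in 9 of the 12 fits that left out 1 library, with adjusted p up to 0.149 for Timp1 and 0.147 for Tgfb1 (limma). In the other 5 comparisons 0 members of any of these lists were called (limma; up to 8 of 11 procollagen-list genes had an unadjusted p under 0.05 for both drugs against fasudil alone).

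Adamts2, Adamts10, Adamts15 and Adamts5 varied together from library to library, and no pair with Adamts1, Adamts9 or Adamts12 passed the test. Of the 21 pairs of tested members, 6 passed after Benjamini-Hochberg adjustment of permutation p-values, and these were the 6 pairs among Adamts2, Adamts5, Adamts10 and Adamts15. Over the 12 libraries Adamts2 and Adamts15 had a Pearson r of 0.93 (permutation p = 3e-05, adjusted 0.00063) and a Spearman coefficient of 0.90 (permutation p = 0.00025, adjusted 0.00262). The lowest of the 6 was Adamts5 with Adamts15, with r = 0.76 (permutation p = 0.00426, adjusted 0.0149) and Spearman coefficient = 0.76 (permutation p = 0.00565, adjusted 0.0198). Without the 2 libraries farthest from the median, r was 0.86 for Adamts2 with Adamts15 and 0.52 for Adamts5 with Adamts15. Computed on deviations from group means, r of the 6 pairs ranged between 0.69 and 0.90. These libraries share their mixture of cells, and the genes share the scaling factor of each library. The permutations shuffled all 12 libraries without regard to group, so their p-values do not allow for differences between groups. The share of all gene pairs with such r was not computed, so the 6 pairs cannot be called particular to the family.

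Adamts15, Adamts10 and Adamts2 were related to the smooth muscle marker sum by Pearson's r, and for Adamts2 the Spearman coefficient did not pass. Of 28 relations between a member and the summed level of a marker list, 7 passed after adjustment of the Pearson p. The smooth muscle sum had r = 0.80 with Adamts15 (permutation p = 0.00171, adjusted 0.0198; Spearman coefficient = 0.82, permutation p = 0.0019, adjusted 0.0171). It had r = 0.79 with Adamts10 (permutation p = 0.00212, adjusted 0.0198; Spearman coefficient = 0.87, permutation p = 0.00052, adjusted 0.00728). With Adamts5 it had r = 0.62, which did not pass (permutation p = 0.0302, adjusted 0.0728; Spearman coefficient = 0.67, permutation p = 0.0202, adjusted 0.0628). With Adamts2 it had r = 0.76 (permutation p = 0.00407, adjusted 0.0285; Spearman coefficient = 0.69, permutation p = 0.0176, adjusted 0.0615). Without the 2 libraries farthest from the median r was 0.70 for Adamts15, 0.79 for Adamts10 and 0.59 for Adamts2. On deviations from group means it was 0.85 for Adamts15, 0.91 for Adamts10 and 0.90 for Adamts2. The brown adipocyte sum ran the other way, with r = -0.80 for Adamts2 (permutation p = 0.0015, adjusted 0.0198; Spearman coefficient = -0.87, permutation p = 0.00041, adjusted 0.00728), which was -0.50 on deviations from group means. Adamts12 and the smooth muscle sum had r = -0.13 (permutation p = 0.681, adjusted 0.762; Spearman coefficient = 0.07, permutation p = 0.835, adjusted 0.899). Here too the permutations ignored the groups, and the share of all genes with such r was not computed. What these markers contribute to the levels of the members was not tested.

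**Figure D4:**
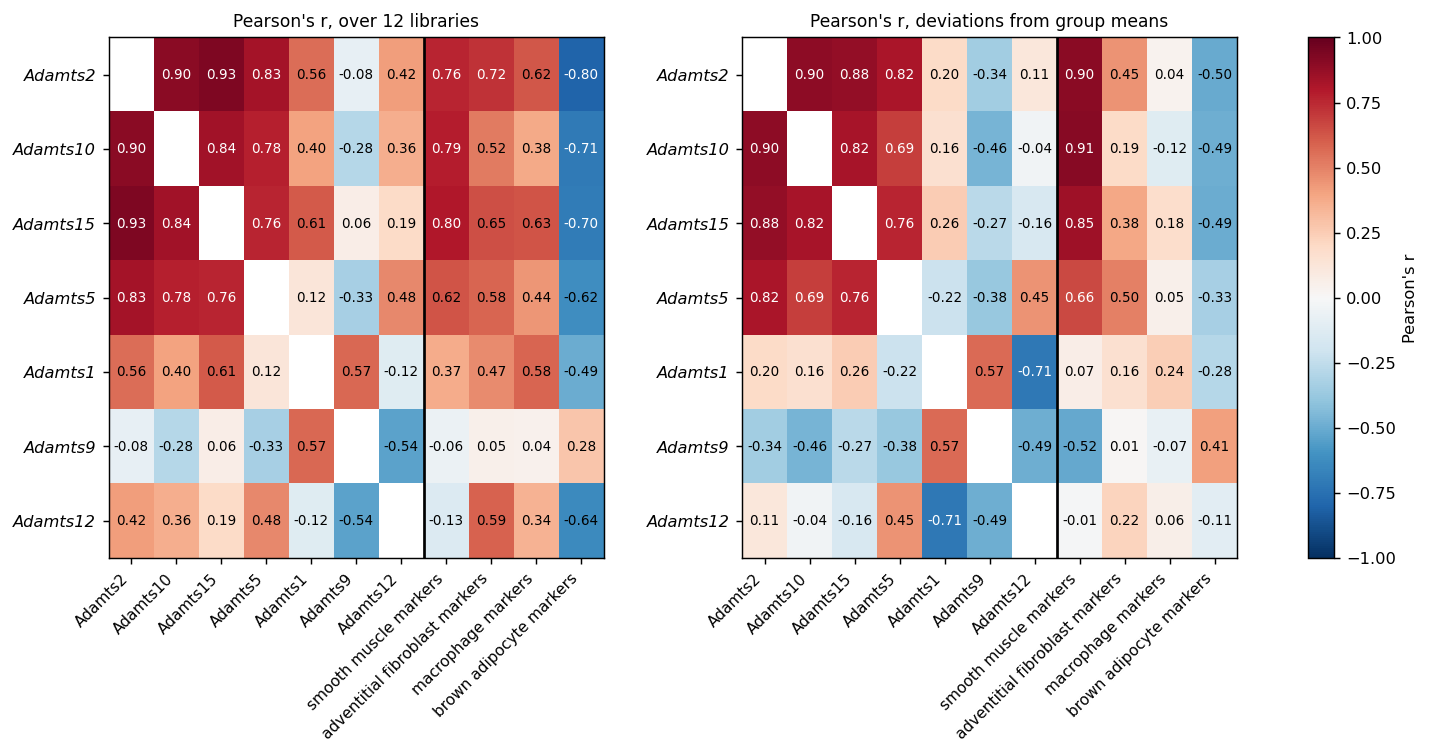
Pearson's r (colour and printed value, from -1 to 1) between the 7 tested ADAMTS genes (rows) and each other or the summed level of marker lists (columns), over 12 libraries on the left and on deviations from group means on the right. Adamts2, Adamts10, Adamts15 and Adamts5 form a block of high r in both panels, down to 0.69 on the right.

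The genes most like each member over the 12 libraries, by Pearson r of log2(scaled FPKM + 1), are given as a description. For Adamts1 they were the stress-induced transcription factor gene Atf3 (r = 0.97, Spearman coefficient = 0.86), Irak2 (r = 0.91) and Eif3f (r = 0.91). For Adamts2 they were Col1a1 (r = 0.98, Spearman coefficient = 0.94), Serpinf1 (r = 0.98) and the microfibril gene Mfap5 (r = 0.98). Those nearest to Adamts5 were Tnfrsf11b, which encodes osteoprotegerin (r = 0.93, Spearman coefficient = 0.91), the prostacyclin receptor gene Ptgir (r = 0.92) and Cpxm2 (r = 0.92). For Adamts10 the list was Izumo4 (r = 0.99, Spearman coefficient = 0.99), Tmtc1 (r = 0.98) and the basement membrane collagen gene Col4a3 (r = 0.97). Adamts15 was nearest to Arf2 (r = 0.955, Spearman coefficient = 0.96), Gas6 (r = 0.95) and Rpn2 (r = 0.95). Adamts12 had a lower best match, Lrch4 (r = 0.88, Spearman coefficient = 0.90), followed by Zfc3h1 (r = 0.86) and Mknk1 (r = 0.86). Adamts9 was nearest to Kars (r = 0.90, Spearman coefficient = 0.67), Gpr4 (r = 0.89) and Rplp2 (r = 0.87).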

How the data were processed

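RNA-seq of whole mouse aortas was deposited as 1 table of FPKM per gene and library. FPKM were made by the authors; Bowtie2, RSEM, DESeq2 and the builds GRCm39 and mm10 appear in the submitters' processing notes without their roles, and gene positions are printed as GRCm39. The members and lists were chosen with earlier results of these data known. The deposited FPKM column of BAPN replicate 2 equalled replicate 1 plus 1 in all 28510 genes with values and was not used, which left 12 libraries. A filter of 1 FPKM or more in 2 or more libraries left 13748 genes, among them 7 of the 8 members. Libraries were scaled by an unweighted trimmed mean of log ratios (trim 30% and 5%; factors 0.761 to 1.36). log2(scaled FPKM + 1) of all 4 groups entered 1 limma fit (R 4.3.3, limma 3.58.1, trend and robust prior), and p-values were adjusted by Benjamini-Hochberg over all tested genes, with calls at an adjusted p under 0.05. A limma model was used because the table holds no counts. Depth was estimated from the steps between low FPKM values; no batch is named in the labels. Named genes were the 8 members and, per list, those called or else the 2 most abundant (up to 4). For each member the 3 genes with the highest r were also named. Relations across libraries used 100000 permutations of the 12 libraries without regard to group, 2-sided (scipy 1.17.1), whose smallest possible p is 1e-05. Promoters came from RefSeq (GRCm38.p6) and were matched by symbol. The fit was tested on simulated data. Alternatives were other pseudocounts, filters, scalings, weights and priors, only the compared groups, a recovered BAPN replicate 2, a replicate block and leaving out each library. Whether equal replicate numbers pair libraries was checked on deviations from group means: 3 of 15 same-number pairs had r over 0.1 (range -0.487 to 0.213).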

Additional observations from a re-analysis of the deposited data

Results flagged for a closer look

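The fasudil effect on Adamts12 differed in direction with and without BAPN. Every library with both drugs (1.15, 1.32 and 1.37 scaled FPKM) was below the BAPN group mean of 1.64, and every library with fasudil alone (1.71, 1.23 and 1.24) was above the vehicle mean of 0.785. Since no vehicle library reached 1 FPKM, Adamts12 entered the test only through treated libraries, which limits what its low vehicle mean can show. The difference between these effects was -0.628 on the log2 scale (SE 0.20, limma, adjusted p = 0.837), so it did not pass.

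Adamts9 showed the opposite arrangement. All libraries with both drugs (5.04, 3.28 and 3.51 scaled FPKM) were above the BAPN group mean of 2.59, and all with fasudil alone (2.96, 2.96 and 2.99) were below the vehicle mean of 3.54. The part with fasudil alone depended on the scaling. On FPKM without scaling fasudil replicate 3 was at 3.28, above the mean of the vehicle libraries (3.05, 3.3, 3.05 and 2.61). The difference between the effects was 0.647 on the log2 scale (SE 0.23, limma, adjusted p = 0.837). It was 0.449 without BAPN replicate 1 and 0.491 with BAPN replicate 2 recovered. For both Adamts12 and Adamts9 the BAPN group mean printed here rests on 2 libraries, and no explanation was tested.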

How the results depend on the processing

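Of 42 values (7 members in 6 comparisons), 28 kept their direction in every alternative fit. Counts of called members moved from 0 in these cases, with the share of all genes called in brackets. For both drugs against vehicle they were 2 without scaling (12.2%), 5 with library quality weights (37.8%) and 1 with only the compared groups (12.8%). For both drugs against fasudil 4 were called with weights (31.9%). For BAPN alone against vehicle 1 was called with BAPN replicate 2 recovered (7.85%). Fits that left a lone BAPN library are not counted here. Without scaling the median of all genes moved to 0.35 for both drugs and 0.43 for BAPN alone against vehicle, and the values that turned were Adamts2 at -0.0141 for both drugs against BAPN, Adamts12 at 0.0303 for both drugs against fasudil, Adamts9 at 0.032 for BAPN against vehicle, Adamts2 at 0.106 and Adamts5 at 0.109 for fasudil against vehicle, and Adamts2 at -0.12 for the interaction. Rescaled without mitochondrial-chromosome genes they were Adamts2 at -0.0361 (both drugs against BAPN), 0.0625 (fasudil against vehicle) and -0.0986 (interaction) and Adamts5 at 0.0997 (fasudil against vehicle). With quality weights Adamts9 was at -0.03 for both drugs against vehicle, Adamts5 at 0.0875 and Adamts10 at 0.0582 for both drugs against BAPN, Adamts10 at -0.187 for fasudil against vehicle, and Adamts5 at 0.166 and Adamts10 at 0.245 for the interaction. The replicate block called 0 members and 0 genes in every comparison. It turned Adamts1 to -0.0123 for BAPN and Adamts10 to -0.148 for fasudil against vehicle. The labels name no pairing by replicate number, and with 2 to 4 libraries per group the check on deviations cannot settle it. Timp1 and Tgfb1, added after their calls were seen, were each lost in 11 of 24 settings (block adjusted p = 0.285 and 0.284; no filter, 0.0898 and 0.0847; limma). Leaving out 1 library turned the sign of Adamts1 (BAPN against vehicle, -0.00882 to 0.368), Adamts2 (both drugs against BAPN, -0.143 to 0.362; fasudil against vehicle, -0.503 to 0.346; interaction, -0.264 to 0.603), Adamts5 (fasudil against vehicle, -0.139 to 0.182), Adamts9 (both drugs against vehicle, -0.0443 to 0.203), Adamts10 (both drugs against BAPN, -0.383 to 0.235; fasudil against vehicle, -0.211 to 0.286; interaction, -0.463 to 0.149), Adamts12 (both drugs against fasudil, -0.129 to 0.0274) and Adamts15 (fasudil against vehicle, -0.451 to 0.0303). The count of all genes called for both drugs against vehicle, 231, ranged between 1 and 1695 over these fits. The members whose sign turned had values that did not pass; the cause was not tested. The fit with only the compared groups could not be made for the interaction. Adamts4, with about 5.49 to 136 reads per library, was below the filter.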

Other observations

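A value for BAPN replicate 2 can be read from the deposited BAPN group mean, which differs from the mean of the deposited columns in 28495 genes and gives a 2-decimal value of 0 or more in all 28510. Scaled with the other 12 libraries, this replicate had 11.5 scaled FPKM of Adamts1, 23.2 of Adamts2, 0.399 of Adamts4 and 3.02 of Adamts5. It had 3.81 of Adamts9, 54.6 of Adamts10, 1.80 of Adamts12 and 3.75 of Adamts15. Adamts9 was thus above BAPN replicates 1 and 3 (2.19 and 3.08 on this scaling), and for the other members it lay within or close to their range. With it, limma called 1 member for BAPN against vehicle, Adamts12, at an adjusted p of 0.0265, among 1086 genes.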
